A study of Mus musculus with 10 samples.

Results

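Dense clusters of non-promoter peaks are stretches of the mouse genome in which many accessible sites lie close together away from gene starts. They were built from the positions of peaks alone: peaks annotated as promoter were dropped, the remaining peaks on a chromosome were joined wherever the gap between neighbours was at most 12500 bp, and joined groups of at least 8 peaks were kept. This gave 517 clusters with 5639 peaks, which is 14.5% of the 39023 non-promoter peaks and 9.16% of all 61571 nuclear peaks. The 517 clusters are 2.79% of the 18529 joined groups of any size. Counts of a cluster's peaks were summed in each library.

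The libraries came from naive CD4 T cells (CD3+ CD4+ CD25-, CD44 low or negative, CD62L+) of spleen and lymph node. All mice carried Satb1 fl/fl alleles and 1 copy of CD4-CreERT2, a tamoxifen-dependent Cre recombinase under CD4 control. The 5 KO libraries came from mice treated with tamoxifen and the 5 WT libraries from mice with these same alleles that were left untreated. No tamoxifen-only control is among the samples, so effects of the drug and of the Satb1 deletion cannot be told apart. Each library was made from 60000 cells and sequenced as single reads of 75 bp, and the labels give no age, litter or animal identity, so the p-values cover library-to-library spread, which may be technical.

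ATAC-seq uses a transposase that cuts and tags open DNA, so the count over a region rises with its accessibility. In lymphocytes, genes that define cell identity often sit beside several enhancers packed close together, and such clusters are usually bound by many transcription factors at once. SATB1 is a nuclear protein of the T cell lineage that binds AT-rich DNA, brings distant sites into contact and recruits remodelling and deacetylase complexes. A cluster is called here by the nearest gene that its peaks carry most often in the deposited annotation, with ties settled by counts. This need not be the gene of most of its peaks (4 of 10 for the Tex44 cluster). The name is a label and not evidence that the cluster acts on that gene.

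Counts in nuclear peaks ranged from 660107 to 2167685 per library. Peaks near naive CD4 T cell genes (9 of 9 genes with peaks) summed to between 2482 and 2589 CPM (counts scaled to a common library total) in KO libraries and between 2348 and 2534 CPM in WT libraries. B cell marker genes had peaks at 3 of 7 genes and between 32.1 and 37.1 CPM in KO libraries, against 32.6 to 42.1 CPM in WT libraries. The defining B cell genes Ms4a1, Pax5 and Ebf1 had no peak. Myeloid markers had peaks at 5 of 7 genes, with none at Lyz2 or Csf1r, and summed to 204 to 248 CPM in KO libraries and 193 to 222 CPM in WT libraries. CD8 and cytotoxic genes had peaks at 5 of 6 genes, with 237 to 263 CPM in KO libraries and 244 to 264 CPM in WT libraries. Erythroid and stromal genes had peaks at 4 of 6 genes, with 164 to 211 CPM in KO libraries and 171 to 189 CPM in WT libraries. In 4 cases a pair of libraries of the same group (Sample_2268_KO and Sample_2270_KO, Sample_2270_KO and Sample_2272_KO, Sample_2273_WT and Sample_2276_WT, Sample_2273_WT and Sample_2277_WT) differed over peaks by no more than sampling noise. They were kept as separate libraries because their counts in a stretch of chromosome 14 described last differed for 3 of the 4 pairs. That stretch was delimited as a run of peaks without counts in Sample_2273_WT. The differences of Sample_2273_WT from Sample_2276_WT and Sample_2277_WT there follow in part from that choice. Of the remaining pairs, Sample_2268_KO and Sample_2270_KO differed there, and Sample_2270_KO and Sample_2272_KO did not. The stretch is therefore no independent test of whether these libraries are separate. Results with these libraries merged are given with the other alternatives.

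The reference sequences at hand, RefSeq GRCm38.p6 windows around gene starts, overlap 108 of the 5639 cluster peaks, of which 3 were called singly. The following 3 stretches are shown because they lie under peaks that changed: one of the changed peaks of a cluster near Satb1, and the changed promoter peaks that lie within the Fam240a and Cd101 clusters. Each is the part of the peak that the window covers, written 5′ to 3′, and capitals mark matches on either strand to the letters GGAA (ETS factors), TGTGGT (RUNX factors) and TGANTCA (AP-1).
Gm20098 cluster peak, chr17:52149121-52149288, plus strand: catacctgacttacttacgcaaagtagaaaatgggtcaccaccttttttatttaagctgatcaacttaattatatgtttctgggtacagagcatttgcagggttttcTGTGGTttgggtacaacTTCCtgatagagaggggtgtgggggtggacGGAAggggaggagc
Fam240a promoter peak, chr9:110916899-110917114, minus strand: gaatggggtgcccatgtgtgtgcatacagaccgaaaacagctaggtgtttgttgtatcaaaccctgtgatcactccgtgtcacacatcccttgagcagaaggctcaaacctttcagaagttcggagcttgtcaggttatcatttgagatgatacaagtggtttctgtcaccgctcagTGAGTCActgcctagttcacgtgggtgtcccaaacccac
Cd101 promoter peak, chr3:101029554-101029715, minus strand: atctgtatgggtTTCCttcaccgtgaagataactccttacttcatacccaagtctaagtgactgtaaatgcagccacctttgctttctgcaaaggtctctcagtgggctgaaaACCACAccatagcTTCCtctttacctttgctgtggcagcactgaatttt

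The Gm20098 cluster stretch, which is 55.4% A and T, holds 2 GGAA matches and 1 TGTGGT match. The Fam240a stretch holds 1 TGANTCA match and no GGAA, and the Cd101 stretch holds 2 GGAA matches and 1 TGTGGT match. Among all 32851 RefSeq windows, GGAA occurs in 96.0%, TGTGGT in 16.8% and TGANTCA in 7.81%. CTTTGA (TCF and LEF factors, 16% of windows) and TTCNNNGAA (STAT factors, 8.30% of windows) were searched for as well and occur in none of the 3 stretches. These are shares of windows, while the stretches, of 168, 216 and 162 bp, are only the parts of windows under peaks. The shares are therefore no rate for stretches of such length. A match is a description of letters only.

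A typical cluster had 10 peaks over 33.9 kb, and peaks covered 6.11% of that span. The longest cluster spanned 129 kb and the shortest 8.46 kb. Of the cluster peaks, 57.5% lay in introns and 34.1% in distal intergenic DNA, against 46.0% and 42.6% of the 33384 other non-promoter peaks. Cluster peaks were a median of 165 bp wide with 8.18 CPM, against 144 bp and 5.63 CPM in the other non-promoter peaks. The summed level of a cluster ranged from 22.4 to 692 CPM with a median of 130.3 CPM (203 counts per library), and the strongest peak held a median of 28.3% of it. At the border of the definition, the 142 groups of 8 peaks had a median of 91.9 CPM over 25.3 kb and the 226 groups of 7 peaks, which are left out, 77.4 CPM over 22.4 kb.

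The clusters with the most peaks were named for Chd2, a chromatin remodeller (32 peaks), Prkch, a protein kinase C (31), the T cell transcription factor Lef1 (30), the quiescence factor Foxp1 (29), and Akap13, Rhoh and the transcription factor Bach2 (25 each). Pip4k2a, a lipid kinase, had 24 peaks, and Tgfbr2, a TGF-beta receptor, and Ankrd44 had 23 each. The Chd2 cluster had the highest level, 702 ± 20.01 CPM in KO, against 682 ± 28.8 CPM in WT (SD, n = 5 each). The Foxp1 cluster had 402 ± 6.05 CPM in KO, against 383 ± 4.58 CPM in WT, and the Lef1 cluster 478 ± 16.2 CPM in KO, against 466 ± 19.5 CPM in WT. None of these 10 largest clusters passed the test of summed counts described next, and their log2 fold changes lay between -0.07 for Bach2 and 0.12 for Akap13.

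As a whole, the clusters held 7.55 ± 0.191% of in-peak counts in KO libraries and 7.44 ± 0.310% in WT libraries (SD, n = 5 each), a difference smaller than the spread within either WT or KO. Of non-promoter counts alone they held 19.1 ± 0.0615% in KO and 19.0 ± 0.323% in WT. Against this, single clusters did change. In edgeR's quasi-likelihood test on summed counts, with the adjusted p taken over all 27287 joined groups and promoter peaks tested, 28 of 517 clusters were higher in KO and 6 were lower at an adjusted p under 0.05. Those counts are 5.42% and 1.16% of the clusters, beside 2.54% and 0.689% of everything tested and 4.47% and 1.29% of the joined groups with fewer than 8 peaks. The fold of a called cluster was modest, between 1.17 and 1.48 for the 28 that were higher and between 0.718 and 0.824 for the 6 that were lower. In 27 of the 34 the KO range and the WT range were apart. Over all clusters, 33 had every KO library above every WT library (6.38%, beside 2.51% of everything tested) and 7 had every KO library below (1.35%, beside 1.13%).

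**Figure D1:**
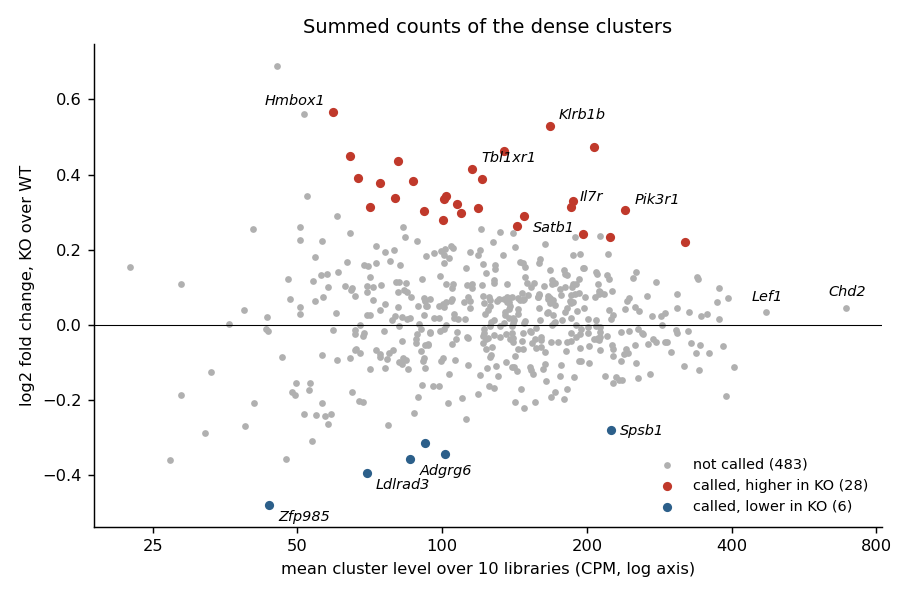
Log2 fold change of each of the 517 dense clusters (KO over WT, y axis) against its mean level in CPM (x axis, log scale), with called clusters coloured. The 28 higher and 6 lower clusters have mean levels between 43.7 and 320.2 CPM, and the strongest cluster, Chd2, sits near 0.

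The plot of change against level shows that none of the 10 clusters with the most counts was among those called. At an unadjusted p under 0.05 there were 75 higher clusters (14.5% of the 517) and 39 lower (7.54%), beside 7.27% and 5.42% of all joined groups and promoter peaks tested. The number of calls depended on the tool and on single libraries: DESeq2 called 11 higher and 1 lower (2.13% higher, beside 1.26% of everything tested), and limma-voom 30 higher and 6 lower (5.8% and 1.16%, beside 2.46% and 0.59%). The number higher was 18 without Sample_2271_KO and 15 without the libraries under 1200000 counts, and the number lower was 3 without Sample_2272_KO or without Sample_2275_WT. Shares over everything tested are not given for these fits with libraries left out. Of the 34 calls, 11 were kept under every change of tool, scaling, filter and left-out library, and these were all higher in KO: Klrb1b, Gm20098, Mir7219, Hmbox1, Tbl1xr1, Tex44, Cd200r3, Cd48, Rpl11, Pik3r1 and Il7r.

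Satb1, the targeted gene, has a dense cluster of its own of 14 peaks at chr17:51776894-51826825. It held 166, 171, 158, 171 and 150.2 CPM in KO libraries, against 134, 147, 137, 112 and 135 CPM in WT libraries. Every KO library lay above every WT library, by 0.29 ± 0.08 on the log2 scale (SE, edgeR adjusted p = 0.0189). Its called peaks were an intron peak at chr17:51813881-51814068, with 12.4 ± 4.78 CPM in KO, against 7.25 ± 1.66 CPM in WT, and a peak annotated as 5' UTR at chr17:51826423-51826825, with 36.9 ± 4.79 CPM in KO, against 23.8 ± 5.40 CPM in WT. The call on the cluster was lost without Sample_2271_KO (edgeR adjusted p = 0.107), without Sample_2276_WT (0.0832), without the low-count libraries (0.116) and with DESeq2 (0.100), a range of 0.00986 to 0.116 over the alternatives of tool, scaling, filter and left-out library. Without its peak of smallest p the Satb1 cluster had a log2 fold change of 0.20 (edgeR adjusted p = 0.231), and over its peaks not called singly 0.14 (edgeR adjusted p = 0.507). Where the floxed segment lies is not stated in the labels, so these counts do not check the deletion.

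A further cluster, 322 kb from the end of the Satb1 cluster at chr17:52149121-52182968, carries the name of the gene model Gm20098 and is described here because of its place near Satb1, after its values were seen. Its 8 peaks held 252, 244, 243, 239 and 231 CPM in KO libraries, against 152, 187, 177, 184 and 162 CPM in WT libraries. The lowest KO library stood well above the highest WT library, and the cluster was higher by 0.47 ± 0.07 on the log2 scale (SE, edgeR adjusted p = 2.37e-06, between 3.44e-07 and 0.000504 over the alternatives of tool, scaling, filter and left-out library). The call was lost without its peak with the most counts (log2 fold change 0.27, edgeR adjusted p = 0.0528) and over its peaks not called singly (0.14, edgeR adjusted p = 0.545). Called singly in it were the peak whose sequence is printed above, with 25.4 ± 5.47 CPM in KO, against 12.2 ± 3.79 CPM in WT, and a broad peak at chr17:52162403-52163329 with 122 ± 10.8 CPM in KO, against 73.3 ± 6.08 CPM in WT. Together they made up 88.4% of the difference of the whole cluster, and another strong peak at chr17:52168391-52168995 had 38.7 ± 3.19 CPM in KO, against 38.5 ± 7.05 CPM in WT. Called peaks are chosen for their difference in these same libraries, so here and below their share of a cluster's difference is raised by that choice.

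The called cluster with the smallest adjusted p lies beside Klrb1b, which codes for an inhibitory C-type lectin receptor of the NK receptor family, at chr6:128833122-128856581. Its 12 peaks held 198, 218, 228, 183 and 174 CPM in KO libraries, against 124, 136, 144, 139.7 and 129.5 CPM in WT libraries. No KO library was as low as the highest WT library, and the difference was 0.53 ± 0.08 on the log2 scale (SE, edgeR adjusted p = 1.26e-06). A pair of adjacent peaks upstream of the gene rose, one to 24.4 ± 8.93 CPM in KO, against 8.29 ± 3.17 CPM in WT, and its neighbour to 30.2 ± 5.02 CPM in KO, against 13.5 ± 3.54 CPM in WT. With the third called peak, in an intron, they made up 61.1% of the cluster's difference on 27.5% of its counts. Peaks near NK and innate lymphoid marker genes (3 of 5 with peaks, Ncr1 and Klra8 with none) summed to between 156 and 213 CPM in KO libraries and between 151 and 166 CPM in WT libraries. Most of this lay at Klrb1c, with 125.5 ± 13.6 CPM in KO, against 117 ± 7.74 CPM in WT. Promoter peaks of these marker genes held 4.59 to 8.07 CPM in KO libraries and 3.94 to 6.82 CPM in WT libraries. The part of such cells in the Klrb1b result was not tested.

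The sums of the Il7r and Pik3r1 clusters were both higher in KO. The Il7r cluster, at chr15:9564266-9623222 upstream of the gene for the IL-7 receptor alpha chain, had 19 peaks with 222, 212, 202, 199 and 193 CPM in KO libraries, against 171, 163, 164, 169 and 158 CPM in WT libraries. The groups did not overlap, and the log2 fold change was 0.31 ± 0.07 (SE, edgeR adjusted p = 0.00311). One weak peak in it, at chr15:9595262-9595479, had 11.7, 10.5, 9.19, 14.2 and 8.70 CPM in KO libraries, against 0.997, 1.52, 0.959, 6.56 and 0 CPM in WT libraries (log2 fold change 2.46 ± 0.37, edgeR adjusted p = 2.93e-07). This peak was near the detection limit in 4 of the WT libraries and clearly present in KO. It and a second called peak made up 34.7% of the cluster's difference on 7.31% of its counts.

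The Pik3r1 cluster, at chr13:101694140-101719811 within the gene for a regulatory subunit of PI3-kinase, had 13 peaks with 273, 256, 269, 265 and 266 CPM in KO libraries, against 214, 234, 208, 206 and 211 CPM in WT libraries. The groups again did not overlap (log2 fold change 0.31 ± 0.07, edgeR adjusted p = 0.00213). Inside it the peaks did not move together. Intron peaks at chr13:101713708-101714067 and chr13:101707298-101707693 rose, the first to 20.4 ± 1.99 CPM in KO, against 6.87 ± 1.80 CPM in WT, and the second to 29.2 ± 4.11 CPM in KO, against 12.2 ± 4.13 CPM in WT. With the last called intron peak, their share came to 69.6% of the cluster's difference on 16.9% of its counts. The peak at the cluster's edge, chr13:101694140-101694471, had 15.1 ± 2.52 CPM in KO, against 20.8 ± 2.51 CPM in WT, missing the threshold singly (edgeR adjusted p = 0.138), yet it departed from its cluster by -0.76 on the log2 scale (edgeR adjusted p = 0.00102 in the test of departure described below).

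**Figure D2:**
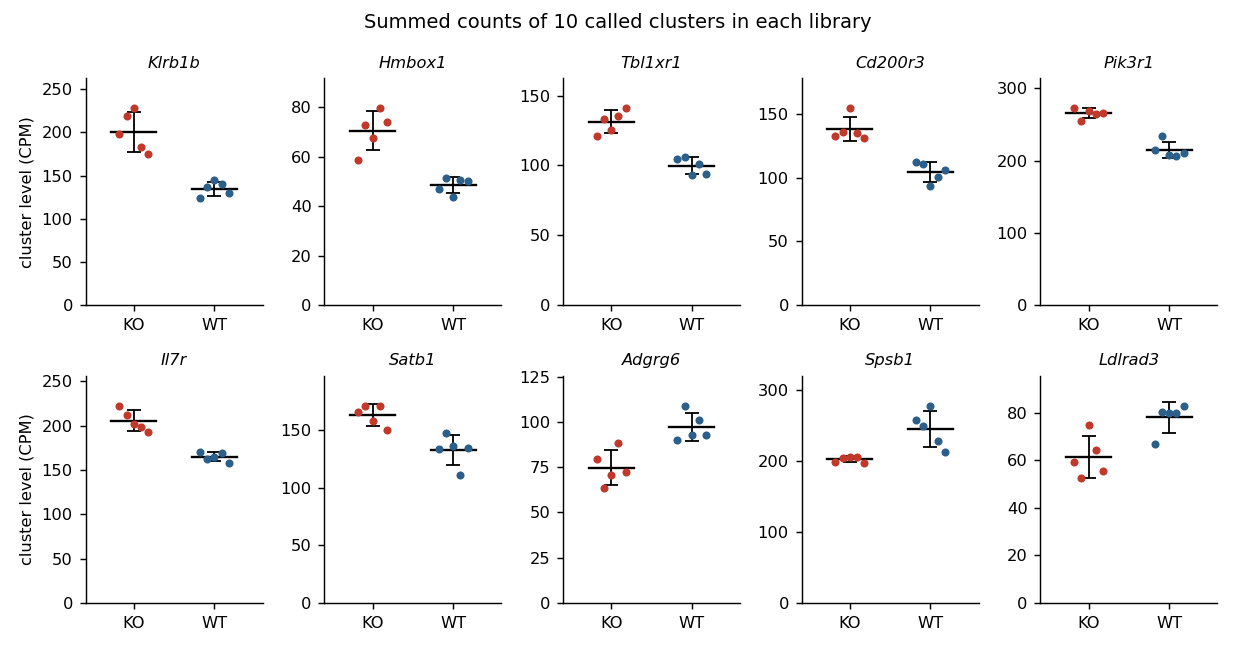
Summed level in CPM (y axis) of 10 dense clusters in each library, KO points left of WT points, with the mean and SD of 5 libraries. KO and WT points do not overlap for the 7 clusters shown that were higher, nor for Adgrg6 and Spsb1 among the 3 that were lower.

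Other clusters that stayed called under every tool, scaling, filter and left-out library were named for genes with different roles. The Hmbox1 cluster, named for a homeobox protein, had the highest fold: 58.7, 72.8, 67.4, 79.6 and 73.7 CPM in KO libraries, against 46.9, 51.1, 43.6, 50.5 and 50.2 CPM in WT libraries (log2 fold change 0.57 ± 0.10, edgeR adjusted p = 2.77e-05). The Tbl1xr1 cluster, named for a subunit of the NCoR and SMRT corepressor complexes, had 121, 133, 126, 136 and 141 CPM in KO libraries, against 105, 106, 93.0, 101 and 94.2 CPM in WT libraries (log2 fold change 0.41 ± 0.08, edgeR adjusted p = 0.000324). In both, KO and WT libraries did not overlap, and 1 called peak held most of the difference, 66.5% for Hmbox1 and 61.1% for Tbl1xr1. Without its peak with the most counts the Hmbox1 call was lost (edgeR adjusted p = 0.1135). The Cd200r3 cluster, named for a member of the CD200 receptor family, averaged 138 ± 9.5 CPM in KO, against 105 ± 7.79 CPM in WT (SD, n = 5 each). The Cd48 cluster, named for a ligand of the SLAM family, averaged 74.8 ± 9.05 CPM in KO, against 53.9 ± 5.34 CPM in WT. The Rpl11 cluster, named for a ribosomal protein and holding a called peak nearest to Id3, an inhibitor of E proteins, averaged 209 ± 3.16 CPM in KO, against 165 ± 11.3 CPM in WT. The Tex44 cluster averaged 94.3 ± 9.07 CPM in KO, against 67.9 ± 4.85 CPM in WT, and the Mir7219 cluster 155 ± 12.2 CPM in KO, against 113 ± 6.72 CPM in WT. KO lay above WT without overlap in each of these 5 clusters. Over their peaks not called singly, the log2 fold change was 0.0041 for Mir7219 and 0.16 for Cd48 (edgeR adjusted p = 0.997 and 0.540). It was 0.14 for Cd200r3 and 0.16 for Rpl11 (edgeR adjusted p = 0.5765 and 0.353). The Tex44 cluster kept its call there (0.37, edgeR adjusted p = 0.00816). This setting removes peaks chosen for their p. In the Mir7219 cluster the other peaks held 52.2 CPM in both KO and WT.

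Further clusters were higher in KO but lost the call in at least 1 alternative. Among them were Ttc39b (98.2 ± 11.2 CPM in KO, against 75.7 ± 4.82 CPM in WT), Mcu, the pore of the mitochondrial calcium uniporter (75.2 ± 10.3 CPM in KO, against 58.3 ± 2.05 CPM in WT), and a cluster near Fam49b, which codes for a Rac1-binding protein (101 ± 7.96 CPM in KO, against 81.9 ± 9.09 CPM in WT). Ttc39b missed the threshold with DESeq2 (DESeq2 adjusted p = 0.0517), and Mcu with DESeq2 (0.134) and without Sample_2272_KO (edgeR adjusted p = 0.161). The Fam49b call (edgeR adjusted p = 0.0351) was lost in 12 alternatives, which gave adjusted p up to 0.269.

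The 6 clusters that were lower in KO were Ldlrad3, Zfp985, Adgrg6, Spsb1, Rassf3 and Pisd-ps1, and each lost its call in at least 1 alternative. The Spsb1 cluster, named for a SOCS-box adaptor protein, had 199.6, 205, 207, 206 and 198 CPM in KO libraries, against 258, 250.2, 278, 228 and 213 CPM in WT libraries (log2 fold change -0.28 ± 0.07, edgeR adjusted p = 0.0133). The KO libraries were tightly grouped below widely spread WT libraries, and the call was lost without Sample_2272_KO (edgeR adjusted p = 0.0569), without Sample_2275_WT (0.105) and without the low-count libraries (0.0721). The Adgrg6 cluster, named for an adhesion G protein-coupled receptor, had 79.2, 63.2, 70.4, 88.4 and 72.4 CPM in KO libraries, against 89.7, 109, 93.0, 101 and 92.9 CPM in WT libraries (log2 fold change -0.36 ± 0.09, edgeR adjusted p = 0.00885). Its groups did not overlap and it holds no peak that was called singly. Its call was lost without Sample_2272_KO (edgeR adjusted p = 0.0580), without Sample_2274_WT (0.0555), without the low-count libraries (0.0861) and with DESeq2 (0.0742).

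The Ldlrad3 cluster had 59.4, 52.7, 75.0, 64.4 and 55.4 CPM in KO libraries, against 66.8, 80.5, 80.0, 80.0 and 83.0 CPM in WT libraries (log2 fold change -0.39 ± 0.09, edgeR adjusted p = 0.00440), and its groups overlapped at 1 library on each side. Among the tools, scalings, filters and left-out libraries tried, it lost the call with DESeq2 alone (DESeq2 adjusted p = 0.0789). The Rassf3 cluster, named for a Ras-association family protein, averaged 82.9 ± 4.07 CPM in KO, against 101 ± 8.18 CPM in WT, and lost its call with DESeq2 and without Sample_2271_KO, Sample_2272_KO or Sample_2275_WT (edgeR adjusted p = 0.0803, 0.0797 and 0.0949). The Zfp985 cluster, in a zinc-finger gene family, averaged 36.7 ± 6.27 CPM in KO, against 50.8 ± 8.50 CPM in WT and lost its call with DESeq2 and without Sample_2268_KO or Sample_2271_KO (edgeR adjusted p = 0.0633 and 0.0647). Its groups overlapped, and only 1 of its 9 peaks had enough counts to be tested singly. Pisd-ps1, at 89.4 ± 13.3 CPM in KO, against 113 ± 22.4 CPM in WT, is a pseudogene with near-identical copies, so its reads may be split between copies. Its call was lost in 9 alternatives, with adjusted p up to 0.247.

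The number of peaks in a group did not go with more calls once 4 or more peaks were joined. Of groups with 8 to 11 peaks 5.38% were higher in KO and of groups with 12 or more 5.52%, beside 5.77% of groups with 4 to 7 peaks, 4.69% with 2 or 3 and 3.44% of lone peaks tested. Over all tested groups, called or not, the median absolute log2 fold change was 0.075 with 12 or more peaks, 0.087 with 8 to 11, 0.12 with 4 to 7, 0.16 with 2 or 3 and 0.19 for lone peaks. Over called groups, where the smallest change that can be called falls as counts rise, it was 0.31 with 12 or more peaks, 0.34 with 8 to 11, 0.48 with 4 to 7 and 0.89 for lone peaks. Median levels went the other way, from 10.0 CPM for lone peaks to 193 CPM for groups of 12 or more, so the larger groups were measured with more counts.

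**Figure D3:**
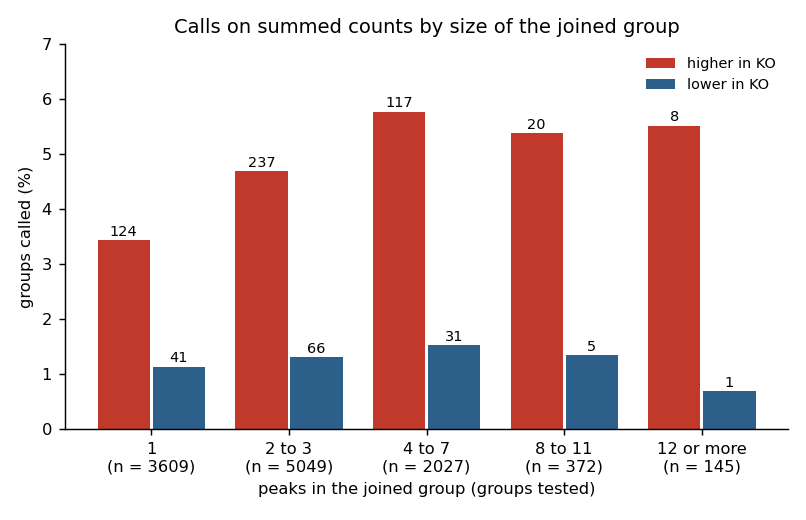
Share of tested groups called higher or lower in KO (y axis, percent) for joined groups by number of peaks (x axis). The share higher in KO runs from 3.44% of lone peaks to 5.77% of groups with 4 to 7 peaks and is 5.38% and 5.52% in the dense clusters.

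Single peaks were tested next. Of the 5639 cluster peaks 3431 had enough counts to be tested singly, and 176 were higher and 38 lower in KO (5.13% and 1.11%), beside 2.96% and 0.928% of all 34695 peaks tested and 4.26% and 1.5% of the non-promoter peaks outside clusters. The number lower was 17 without Sample_2272_KO, 19 without Sample_2275_WT and 25 without Sample_2274_WT. DESeq2 called 88 higher and 4 lower. The DESeq2 share over all single peaks is not given here, so these counts stand without a background. The 214 called peaks lay in 170 clusters, of which 135 held a single one, 26 held 2 and 9 held 3. Called peaks of both directions occurred in 7 clusters. Of the 34 clusters called on their sum 30 held a called peak, and a further 140 clusters held one without being called themselves. Called peaks held a median of 44.4% of the difference of the 34 called clusters on a median of 16.4% of their counts, and under 50% of the difference in 19 of the 34. Peaks and clusters were both chosen for their difference in these same libraries. A share of the difference above the share of counts therefore follows in part from that choice. In the Tex44, Spsb1, Stk17b and Xdh clusters they held 25.7%, 27.6%, 30.6% and 31.4%. Adgrg6, Pisd-ps1, Retreg1 and Gm8013 held no called peak.

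The strongest peak of a cluster was the called one in 34 cases (15.9% of called peaks, beside 14.9% of all tested cluster peaks), 67 called peaks ranked 2 or 3 by counts and 113 ranked 4 or lower. Of called peaks 18.2% lay at an edge of the cluster, against 16.8% of the tested cluster peaks. Where a cluster held at least 2 called peaks (35 clusters), they were next to each other in 10. The typical fold was 1.79 for peaks that were higher and 0.660 for those that were lower, and 64 called peaks were at least 2-fold higher (1.87% of the tested cluster peaks), against 5 at least 2-fold lower (0.146%). The other non-promoter peaks were close to this, with typical folds of 1.89 and 0.618, and with 264 called peaks at least 2-fold higher (1.74% of those tested) and 25 at least 2-fold lower (0.165%).

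The cluster peak with the smallest adjusted p was the distal peak of the Tbl1xr1 cluster at chr3:21962995-21963407. It had 27.1, 26.8, 30.6, 29.3 and 24.7 CPM in KO libraries, against 9.97, 8.61, 6.71, 9.18 and 8.06 CPM in WT libraries (log2 fold change 1.71 ± 0.18, edgeR adjusted p = 3.70e-12). The lowest KO library was far above the highest WT library. In the Cd48 cluster the called peak, at chr1:171661482-171661765, is nearest to Slamf7, which codes for a SLAM family receptor, and had 17.4 ± 4.04 CPM in KO, against 3.69 ± 1.43 CPM in WT. The peak of the Csk cluster at chr9:57646765-57647034, in an intron of the gene for the kinase that phosphorylates the inhibitory tyrosine of LCK, had 29.1 ± 8.06 CPM in KO, against 11.4 ± 2.79 CPM in WT. The peak of the Btg1 cluster at chr10:96586786-96587084, near the gene for an antiproliferative protein of quiescent lymphocytes, had 22.3 ± 4.37 CPM in KO, against 7.70 ± 0.610 CPM in WT. Peaks at chr6:54752005-54752382 near Znrf2 (a ubiquitin ligase), at chr14:40943879-40944081 in Tspan14 (a tetraspanin) and at chr5:107980039-107980288 in Dipk1a averaged 17.8, 17.1 and 15.6 CPM in KO, against 3.83, 3.67 and 2.82 CPM in WT. The highest fold among the named peaks was at chr11:109434765-109434911 in Amz2, with 10.3 ± 1.31 CPM in KO, against 1.71 ± 0.867 CPM in WT (log2 fold change 2.66 ± 0.35, edgeR adjusted p = 8.81e-09). The WT libraries held 2.99, 1.52, 1.44, 1.97 and 0.620 CPM at the Amz2 peak, near the detection limit, so the size of that fold is imprecise. At the Dipk1a peak the lowest WT library, Sample_2276_WT, held 0.656 CPM. KO and WT libraries did not overlap at any of these 8 peaks, and each kept its call in every alternative.

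Among peaks that were lower in KO, the one with the smallest adjusted p lay in an intron of Rftn1, which codes for the lipid raft protein raftlin, at chr17:50148239-50148477. It had 9.54, 4.79, 3.06, 9.27 and 8.24 CPM in KO libraries, against 17.0, 13.2, 20.1, 15.1 and 15.5 CPM in WT libraries (log2 fold change -1.05 ± 0.22, edgeR adjusted p = 0.000534). A second peak of the same cluster, at chr17:50170222-50170472, went the other way, with 15.2 ± 3.73 CPM in KO, against 8.15 ± 3.03 CPM in WT. The Kbtbd11 peak at chr8:14998113-14998339 had 13.9 ± 0.901 CPM in KO, against 23.0 ± 3.62 CPM in WT, the Cox7a2l peak at chr17:83559065-83559519 17.2 ± 3.12 CPM in KO, against 27.5 ± 3.12 CPM in WT, and the Bicdl1 peak at chr5:115717213-115717426 7.24 ± 2.39 CPM in KO, against 15.6 ± 2.23 CPM in WT. These 4 lower peaks kept their calls in every alternative. At Ccr7, the gene for the receptor that guides naive T cells into lymph nodes, both called peaks of the smaller cluster were lower. The peak at chr11:99163033-99163486 had 32.2 ± 2.46 CPM in KO, against 43.8 ± 2.53 CPM in WT (log2 fold change -0.46 ± 0.11, edgeR adjusted p = 0.00586), a call lost without Sample_2272_KO (0.0531) and with DESeq2 (0.1252). The peak at chr11:99170700-99171262 had 57.7 ± 3.13 CPM in KO, against 70.5 ± 12.5 CPM in WT, while the sum of that Ccr7 cluster did not pass (log2 fold change -0.20, edgeR adjusted p = 0.175).

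Whether a peak moved differently from the rest of its own cluster was tested with edgeR's diffSpliceDGE, which compares each peak's log2 fold change with that of its joined group. Of 3422 cluster peaks tested, 141 departed from their cluster, 114 upward and 27 downward in KO (3.33% and 0.789%), beside 1.96% and 0.807% of all 12261 peaks tested in joined groups. The downward number was 11 without Sample_2272_KO and 12 without Sample_2275_WT. Departing peaks lay in 116 clusters, 118 of them were also called singly, and 23 were not. Where at least 5 peaks of a cluster were tested (394 clusters), the log2 fold changes of its peaks had a median SD of 0.29, beside a median SE of a peak of 0.20.

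The Rhoh and Pip4k2a clusters held departures in both directions and did not change in sum. Rhoh codes for a small G protein of blood cells that lacks GTPase activity and acts in T cell receptor signalling. Its 25 peaks held 324 ± 19.5 CPM in KO, against 334 ± 8.89 CPM in WT. One intron peak, at chr5:65871702-65871831, had 2.20, 5.75, 7.65, 3.91 and 5.50 CPM in KO libraries, against 8.97, 8.10, 14.4, 4.59 and 13.6 CPM in WT libraries (departure -1.12 on the log2 scale, edgeR adjusted p = 0.00417). Its groups overlapped. Peaks at chr5:65921558-65921760 and chr5:65938147-65938317 went up, the first with 11 ± 5.15 CPM in KO, against 5.46 ± 1.12 CPM in WT, the second with 11.3 ± 2.33 CPM in KO, against 5.81 ± 2.22 CPM in WT. In Pip4k2a, an intron peak at chr2:18969048-18969311 had 7.14 ± 2.47 CPM in KO, against 13.1 ± 4.62 CPM in WT, and intron peaks at chr2:18959682-18959836 and chr2:18938931-18939122 had 13.0 ± 2.91 and 19.8 ± 4.71 CPM in KO, against 6.27 ± 2.01 and 12.5 ± 1.81 CPM in WT. The lower Pip4k2a peak lost its single call without Sample_2272_KO (edgeR adjusted p = 0.0985), without Sample_2275_WT (0.0964) and with DESeq2 (0.101).

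**Figure D4:**
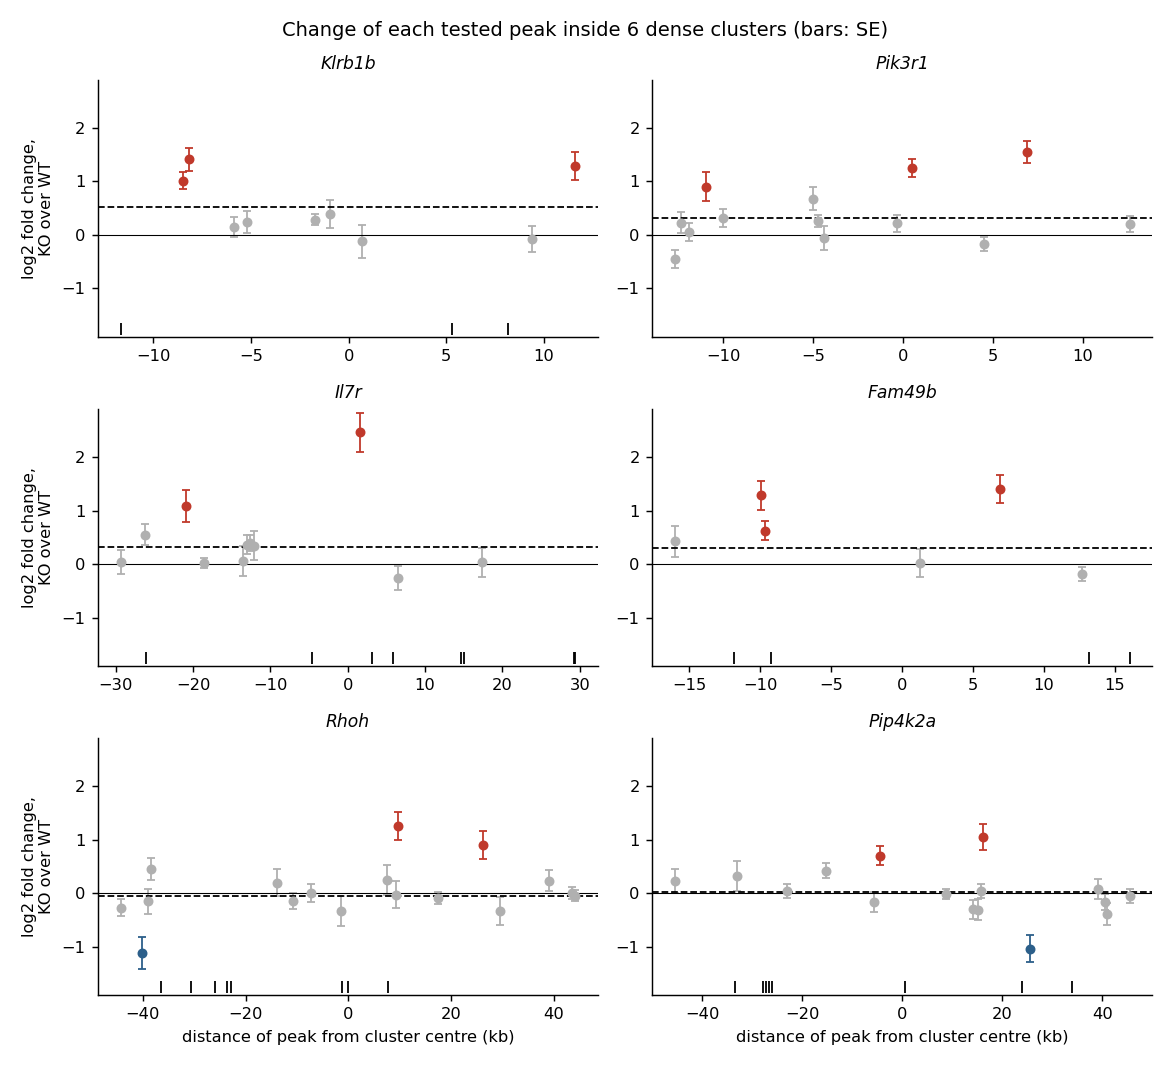
Log2 fold change (KO over WT, y axis) of each tested peak, with its SE, along 6 clusters by distance from the cluster centre in kb (x axis). Called peaks are red (higher) or blue (lower), uncalled peaks grey, ticks at the bottom mark untested peaks, and the dashed line is the log2 fold change of the summed cluster. In Rhoh and Pip4k2a red and blue peaks lie in 1 cluster whose line is near 0.

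In the Fam49b cluster, whose sum was called higher, 3 called peaks rose and the other peaks together had 59.8 CPM in KO, against 60.4 CPM in WT. Among the transcription factor clusters, Foxp1 held 1 called peak (24.0 CPM in KO, against 13.5 CPM in WT at chr6:99375011-99375288) and the larger Ets1 cluster 1 (14.8 CPM in KO, against 6.69 CPM in WT at chr9:32712497-32712649). The largest Bach2 cluster held 1 higher peak and 1 lower peak, the lower one at chr4:32393259-32393522 with 6.94 ± 2.34 CPM in KO, against 12.6 ± 5.58 CPM in WT. That call was lost without Sample_2272_KO, Sample_2274_WT or Sample_2275_WT and with DESeq2 (adjusted p from 0.0867 to 0.167).

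Genes of 6 lists for naive T cells named 45 clusters (38 of 126 listed genes). Of these, 2 were higher in KO, Il7r and Satb1, and 0 were lower by edgeR. At an unadjusted p under 0.05 there were 4 higher (8.89%) and 3 lower (6.67%), beside 14.5% and 7.54% of all clusters. DESeq2 called 1 of the 45 higher and 0 lower, beside 2.13% and 0.193% of all clusters. With limma-voom 2 of the 45 were higher and 0 lower, beside 5.8% and 1.16% of all clusters. The 2 higher clusters are 4.44% of the 45, beside 5.42% of all clusters. The 45 clusters had a median log2 fold change of 0.027, beside 0.025 over all clusters and -0.0022 over everything tested. Both calls were in the list of naive and quiescence factors, which had 21 clusters for 15 genes, among them Lef1, Foxp1, Foxo1, Bach2, Klf2, S1pr1 and Tgfbr2, with a median log2 fold change of 0.04. Of the 216 tested peaks in these clusters, 11 were higher (5.09%) and 3 lower (1.39%), near the 5.13% and 1.11% of all tested cluster peaks. The 8 clusters of T cell receptor and costimulation genes (among them Cd2, Cd247, Cd3d, Lcp2, Prkcq, Ptprc and Thy1) held no called sum and 4 higher peaks of 67 tested (5.97%), and the 7 clusters of lineage and helper factors (Bcl11b, Ets1, Nfatc1, Nfatc2, Prdm1 and Runx3) no called sum and 3 higher peaks of 71 (4.23%). In the list of cytokines and receptors only the chemokine receptor genes Cxcr4 and Cxcr5 named clusters. Those clusters and the clusters of immediate early genes (Fos and Nr4a1) held no called peak among 16 and 13 tested. The 5 clusters of survival and signalling genes (Cblb, Dgkz, Dusp5, Mcl1 and Socs1) held 3 higher peaks of 36 tested (8.33%).

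Promoter peaks were not used to build the clusters, but 207 of them lie within the spans of 87 clusters. Of 164 tested, 4 changed (2.44%, beside 1.62% of all promoter peaks tested). The promoter peak of Cd52, a surface glycoprotein of lymphocytes, within the Sh3bgrl3 cluster had 20.5, 19.2, 18.4, 17.6 and 18.3 CPM in KO libraries, against 8.97, 13.7, 10.1, 9.18 and 8.06 CPM in WT libraries (log2 fold change 0.86 ± 0.19, edgeR adjusted p = 0.00115). A promoter-annotated peak of Lef1 at chr3:131113134-131113302 had 26.4, 25.9, 24.5, 23.4 and 25.2 CPM in KO libraries, against 15.95, 14.7, 15.3, 16.4 and 19.2 CPM in WT libraries (log2 fold change 0.62 ± 0.15, edgeR adjusted p = 0.00634). Both were higher in every KO library than in any WT library. The Fam240a and Cd101 promoter peaks, whose sequences are printed above, were lower, with 14.3 ± 4.06 CPM in KO, against 24.98 ± 7.05 CPM in WT for Fam240a, and 26.9 ± 7.71 CPM in KO, against 40.3 ± 2.67 CPM in WT for Cd101, an inhibitory surface protein (edgeR adjusted p = 0.00150 and 0.00681). None of these 4 lies in a cluster called on its sum. Of the 10 promoter peaks tested in called clusters 0 were called by edgeR, DESeq2 or limma-voom, and 3 had an unadjusted edgeR p under 0.05.

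The clusters whose level varied most between libraries of the same group were 3 clusters over V segments of the T cell receptor alpha locus on chromosome 14 and 4 near the multi-copy Speer4 genes on chromosome 5. Their within-group coefficient of variation was at least 33.1%, against a median of 8.17% over all clusters. The cluster at chr14:53634742-53683651, which overlaps 5 Trav segments, had 49.2, 139, 49.0, 23.4 and 36.6 CPM in KO libraries, against 0, 16.2, 18.7, 66.3 and 55.1 CPM in WT libraries. The cluster at chr14:53538012-53559727, over 4 Trav segments, had 67.5, 145, 39.8, 24.4 and 47.2 CPM in KO libraries, against 0, 27.3, 21.6, 86.6 and 57.6 CPM in WT libraries. In both, 1 WT library was at 0 and the groups overlapped widely, and neither passed the test (edgeR adjusted p = 0.242 and 0.369).

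The library at 0 was Sample_2273_WT in both cases. It had no counts in a run of 36 consecutive peaks at chr14:53345660-53725634, a stretch of 380 kb with 37 V segments, which puts its level under 2.99 CPM (3 counts). The other 9 libraries had 97 to 510 counts there (84.4 to 488 CPM), and none had more than 1 of these peaks in a row at 0. The peaks on either side of the run had 12 and 3 counts in Sample_2273_WT. Near Speer4c, the cluster at chr5:15660806-15709413 had 63.8, 37.3, 62.8, 74.7 and 42.1 CPM in KO libraries, against 52.8, 84.6, 55.1, 21.0 and 13.0 CPM in WT libraries, with Sample_2276_WT and Sample_2277_WT lowest. The cause of these differences was not tested.

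**Figure D5:**
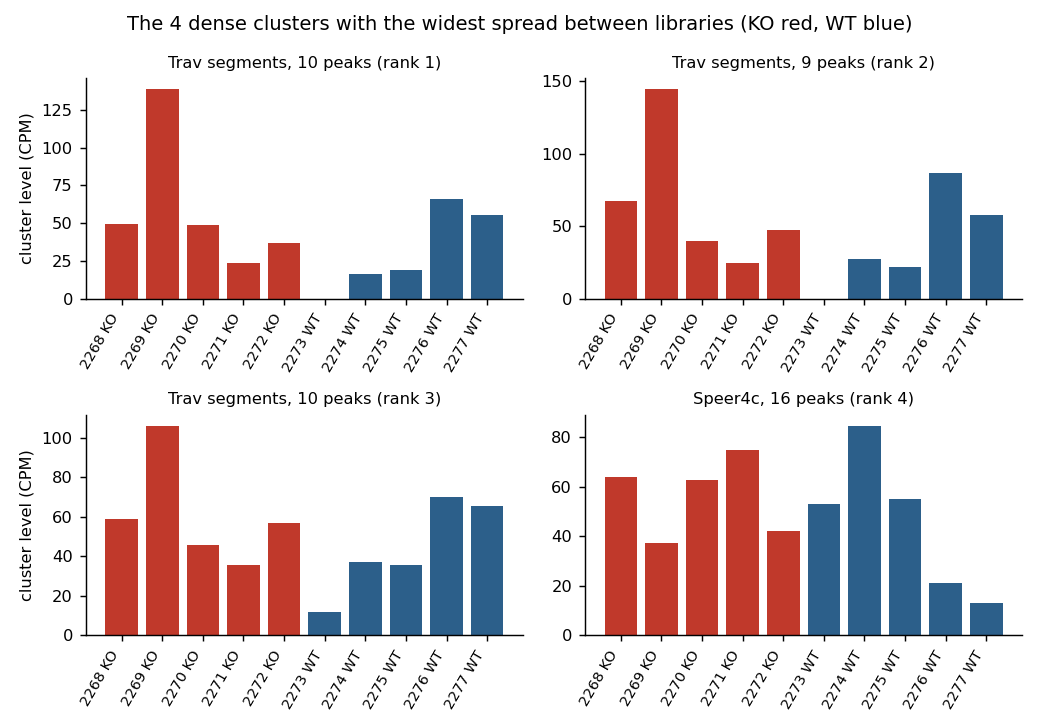
Summed level in CPM (y axis) of 3 clusters over T cell receptor alpha V segments and of the Speer4c cluster in each library, KO left of WT. Sample_2273_WT is at 0 in 2 of the V segment clusters, and Sample_2269_KO is the highest in all 3.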

How the data were processed

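Counts were deposited by the authors as whole numbers, without normalization, for 61581 peaks shared by the 10 ATAC-seq libraries, and a separate annotation table gives each peak's class, nearest gene and distance. Per the submitters' processing notes, the build was mm10 and the tools were ChIPseeker 1.18.0, DESeq2 1.22.2 and R 3.5.3, MACS2 2.1.2, deepTools (3.3.0, 3.5.2), SAMtools 1.9, Picard, Bowtie2 2.3.5, Trimmomatic 0.36 and bcl2fastq 2.20. Shifting to the cut site, treatment of duplicates and pooling for peak calling are not given in the sources used here.

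The 10 mitochondrial peaks (0.780% to 1.97% of counts) were left out. Peaks were joined as described, and where a peak had a gene number without a symbol, the RefSeq name (GRCm38.p6) was used (824 cluster peaks). Levels are CPM, scaled by TMM over the nuclear peaks, and depth limits the precision of weak peaks. edgeR 4.0.16 in R 4.3.3 (TMM, filterByExpr, quasi-likelihood test, prior count 0.125, no covariate, Benjamini-Hochberg adjustment, threshold 0.05) was fitted to single peaks and to summed groups together with promoter peaks, and diffSpliceDGE to peaks within groups. SEs derive from the F statistic. Merging of near-identical libraries, RLE scaling, no filter, each library left out, the libraries under 1200000 counts left out, DESeq2 1.42.0, limma-voom 3.58.1, other gaps (5000 and 25000 bp), other minimum sizes (6 and 12 peaks) and other ways of summing were the alternatives. The steps were tested on simulated data.

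Named clusters are, by rule, the 10 with most peaks and the 10 with most counts, up to 12 per direction with the smallest adjusted p, those with most called peaks or with both directions (up to 8 each), and up to 4 per gene list. Named peaks are up to 12 per direction by adjusted p and 10 by departure, 1 per cluster. Clusters named Gm, LOC or Rik were counted but not described, with the exception stated for Gm20098. Other peaks of these clusters, promoter peaks the clusters with high spread and those in the closing observations were chosen after their values were seen. The clusters, lists and rules were chosen with earlier results of these data known. Some listed genes are counted with their list but not reported here by name.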

Additional observations from a re-analysis of the deposited data

Results flagged for a closer look

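In 196 groups of 5 libraries (KO or WT values of the named and called clusters, of the named peaks and of the share of counts in clusters), 6 had a library that stood apart from its group by Dixon's criterion (gap over range above 0.71), where chance gives about 1 in 20. The Cd200r3 cluster had 155 CPM in Sample_2270_KO, against 131 to 136 CPM in the other KO libraries. The cluster named for the gene model Gm8369 had 146 CPM in Sample_2269_KO, against 109 to 119 CPM in the other KO libraries. In WT, Sample_2275_WT was highest in the Mir8104 cluster, at 203 CPM beside 171 to 176 CPM in the other WT libraries, and in the Xdh cluster, at 94.9 CPM beside 85.3 to 87.7 CPM. Sample_2276_WT was lowest in the cluster near Prkcq, a protein kinase C of T cell receptor signalling, at 266 CPM beside 304 to 311 CPM. Sample_2273_WT was lowest in the Ldlrad3 cluster, at 66.8 CPM beside 80.0 to 83.0 CPM. Without the library that stood apart, the Gm8369 call was lost (without Sample_2269_KO, edgeR adjusted p = 0.0985, and up to 0.226 over its alternatives), while the Cd200r3, Xdh and Ldlrad3 calls were kept.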

How the results depend on the processing

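No paired analysis was possible because the running numbers in the labels pair no KO library with a WT library. The 28 higher and 6 lower cluster calls became 15 higher and 4 lower without the low-count libraries, 11 higher and 1 lower with DESeq2, 18 to 26 higher and 3 to 8 lower with 1 library left out, 7 higher and 6 lower when each cluster's peak of smallest p was left out, and 3 higher and 4 lower over peaks not called singly. These last 2 settings remove peaks chosen for their p, so fewer calls follow from their construction. The definition of a cluster set its number: 51 clusters with 462 peaks at a gap of 5000 bp, 1050 with 13647 at 25000 bp, 1090 with 9303 at 6 or more peaks, and 145 with 2259 at 12 or more. Calls were then 3 higher and 0 lower at 5000 bp (edgeR, with 6 and 5 of 51 at an unadjusted p under 0.05), 54 higher and 8 lower at 25000 bp, 74 higher and 17 lower at 6 or more peaks, and 8 higher and 1 lower at 12 or more. Shares over everything tested are given here only for the main fit, DESeq2 and limma-voom. Whether the cluster calls under the other settings moved with everything tested was not examined. The share of counts in clusters was then 0.664%, 17.1%, 12.04% and 3.08% in KO and 0.635%, 16.8%, 11.9% and 3.03% in WT, or 19.1% in KO and 19.0% in WT of non-promoter counts. With 1 library left out it was 7.47% to 7.59% in KO and 7.35% to 7.52% in WT.

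Called cluster peaks were 88 higher and 4 lower with DESeq2, and 138 to 182 higher and 17 to 44 lower with 1 library left out. Shares over all peaks tested are not given for these alternatives, nor for those of departures and promoter peaks that follow. Departures were 87 to 119 upward and 11 to 30 downward with 1 library left out, and 45 downward when only dense clusters were tested. Promoter peaks within clusters were 1 higher and 1 lower with DESeq2 and 2 to 3 in each direction with 1 library left out. The sign of a called cluster turned in 1 case: the Fam49b cluster summed over peaks not called singly had a log2 fold change of -0.042 (edgeR adjusted p = 0.924). With near-identical libraries merged, 22 clusters were higher and 5 lower. The Vdac1 cluster passed only without the filter, with limma-voom and without Sample_2277_WT. Depth limits the weak peaks (60.8% of cluster peaks could be tested), and the cause of the other changes was not tested.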

Other observations

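Of the genes that name dense clusters, 33 name at least 2, and no gene names more than 3. Separate clusters of 1 gene did not always share a result, though the difference between them was not tested. The second Fam49b cluster, at chr15:64022319-64043710, had 142 ± 17.6 CPM in KO libraries, against 152 ± 9.57 CPM in WT libraries, and did not pass (edgeR adjusted p = 0.826), while the called one had a log2 fold change of 0.30. Near Amigo2, which codes for a cell adhesion protein, the cluster at chr15:97342416-97374110 was higher, with 213 ± 10.6 CPM in KO libraries, against 180.1 ± 3.58 CPM in WT libraries (edgeR adjusted p = 0.0364). That call was lost in 11 of 16 alternatives, with adjusted p up to 0.159. The neighbouring Amigo2 cluster at chr15:97448696-97470232 had 219.6 ± 11.7 CPM in KO libraries, against 201 ± 15.1 CPM in WT libraries, and did not pass (edgeR adjusted p = 0.433). KO values were above the WT mean in every KO library of both Amigo2 clusters.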
